A study of Mus musculus with 9 samples.

Results

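The cells described here carry the label Th2 in the cell annotation that the authors deposited with a single-cell RNA sequencing study of the mouse thyroid. All cells with that label were taken, and they number 137 of 10186 cells in the study. The sources used here do not spell the label out. It stands beside the labels Th1 and Th3, in which thyroglobulin RNA is abundant. The 137 cells were not of 1 kind. Of these, 72 held thyrocyte RNA and carried weights of the authors' topic model, and 65 carried no weights and held thyrocyte RNA at 0.246% of their UMIs, against 4.93% in the 72. Among the latter, 6 cells held every S100a8 and S100a9 count of the label, and most of the other 59 held RNA of leukocyte genes. The label as a whole was therefore not described as a thyroid cell type, and its cells were described by these measured differences.

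The study asked what blockade of Notch signalling does in the thyroid of adult male C57BL/6 mice. Every mouse received 1 intraperitoneal injection of antibody and was sampled at 7 days. Group RW received the control antibody against ragweed (40 mg/kg), group aJ1aJ2 an antibody to each of the Notch ligands Jag1 and Jag2 (20 mg/kg each), and group aN1aN2 an antibody to each of the receptors Notch1 (5 mg/kg) and Notch2 (10 mg/kg). Each group had 3 samples, and each sample was 1 pool of thyroids from 6 mice. The ages are given as 10 to 12 weeks in 1 place and 10 to 14 weeks in another. All groups are of the same strain, and the labels name no engineered allele. The antibodies act on the whole animal, not on thyroid cells alone. Titles fall into 3 number series, called A (RW 3, aJ1aJ2 1), B (RW 1, RW 2, aJ1aJ2 3, aJ1aJ2 4) and C (the 3 aN1aN2 samples). Receptor blockade and series C cannot be told apart.

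Thyrocytes are the epithelial cells of the thyroid follicle. They secrete thyroglobulin (Tg) into the follicle, take up iodide, and couple it to thyroglobulin to form thyroid hormone. Neutrophils are short-lived granulocytes of the blood that carry large amounts of the calcium-binding proteins S100a8 and S100a9 in the cytosol. Their granules form in sequence, first the primary, then the specific and last the gelatinase granules. In a dissociated tissue, a droplet can also hold a nucleus, a damaged cell or free RNA.

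Values are counts of unique molecular identifiers (UMIs), which count captured RNA molecules. Th2 cells were shallow, with a median of 1014 UMIs per cell (504 to 5282) and 576 genes, against 12553 UMIs in Th1 cells and 987 in Th3 cells. Together they held 175624 UMIs. The samples held 6 to 22 Th2 cells, and the Th2 median was 0.173 to 0.588 of the median of all cells of the same sample. Of 10171 distinct barcodes, 15 were found in more than 1 library, and 1 of these belonged to a Th2 cell.

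The topic weights divided the label. The authors' annotation gives each weighted cell 7 topic weights that sum to about 1. All 1169 Th1 cells and all 901 Th3 cells had weights, and 72 Th2 cells did. The Th2 cells with weights numbered 10 in RW 1, 0 in RW 2 and 6 in RW 3. They numbered 4, 8 and 12 in aJ1aJ2 1, 3 and 4, and 12, 8 and 12 in aN1aN2 1, 2 and 3. The cells without weights numbered 6, 10 and 7 in the RW samples, 2, 13 and 10 in the aJ1aJ2 samples and 4, 9 and 4 in the aN1aN2 samples. Both kinds were thus present in 8 samples, and RW 2 held only cells without weights. On the authors' UMAP, a map that places similar cells near each other, the 72 cells lay together between 3.29 and 3.87 on UMAP_2. None of the 65 others lay inside that range, the nearest being at 3.90. Of the 65, 51 lay above 1 on UMAP_1 and at 9 to 11 on UMAP_2, and 11 lay above 1 on UMAP_1 and above 11 on UMAP_2. The other 3 lay at UMAP_1 of -9.99, -2.61 and -1.40. Of these, 1 was the cell at 3.90 on UMAP_2, just above the UMAP_2 range of the 72. The map of Th2 cells shows this split.

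**Figure D1:**
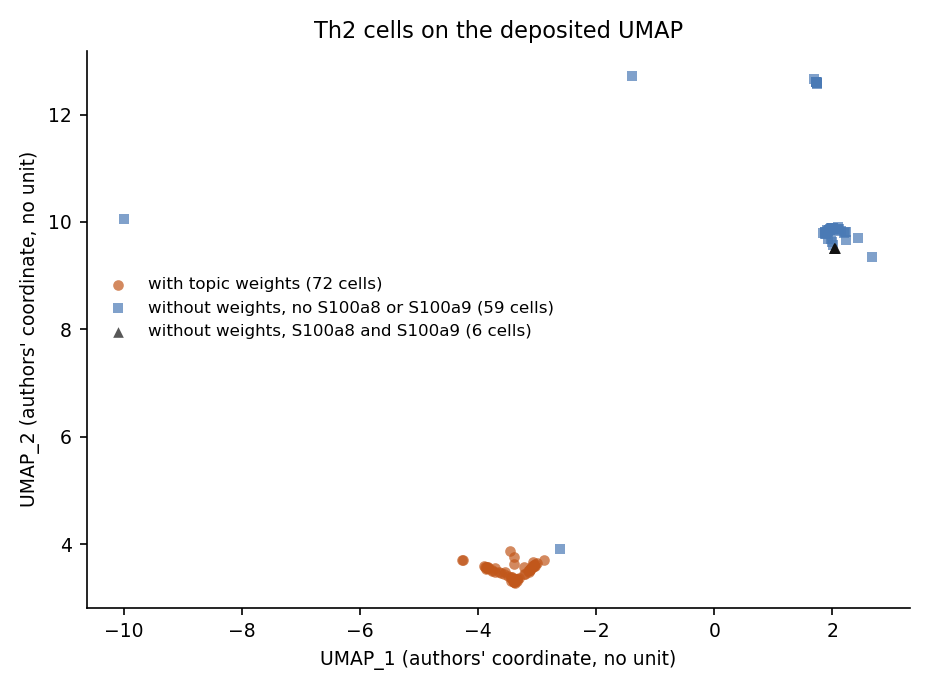
Th2 cells on the authors' UMAP, with each point 1 cell and both axes in the authors' coordinates without unit. The 72 cells with topic weights form 1 group at UMAP_2 of 3.29 to 3.87, and the 6 cells with S100a8 and S100a9 lie among the 65 cells without weights.

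Neutrophil-like and thyrocyte-like RNA were found in different cells of the label. A list of 28 neutrophil genes and a list of 16 thyrocyte genes were summed in each cell, and a cell was called above background when its percent of UMIs passed the 99th percentile of the cells labelled EC1, F and T1, which held RNA of endothelial, fibroblast and T cell genes. For the neutrophil list 9 of the 137 cells passed, for the thyrocyte list 69 passed, for both lists 0 passed, and 59 passed neither. Of the 72 cells with weights, 67 passed for the thyrocyte list and 0 for the neutrophil list. Of the 65 without weights, 2 passed for the thyrocyte list and 9 for the neutrophil list. Of those 9, the 6 cells with S100a8 and S100a9 held 13.2% to 28.2%, and the other 3 passed on 1, 1 and 5 UMIs (0.122%, 0.170% and 0.390%). Thinned to 500 UMIs per cell, 7 cells passed for the neutrophil list, 58 for the thyrocyte list and 0 for both. At the 95th percentile 6 cells passed for both, and with Eryth1 and Eryth2 cells as background 3 did. The 6 cells with S100a8 and S100a9 held 0.0374% to 0.875% of their UMIs in the thyrocyte list, below the 0.977% that the call required. The plot of S100a8 plus S100a9 against the thyrocyte list shows the 6 cells beside all others, and does not show the other neutrophil genes.

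**Figure D2:**
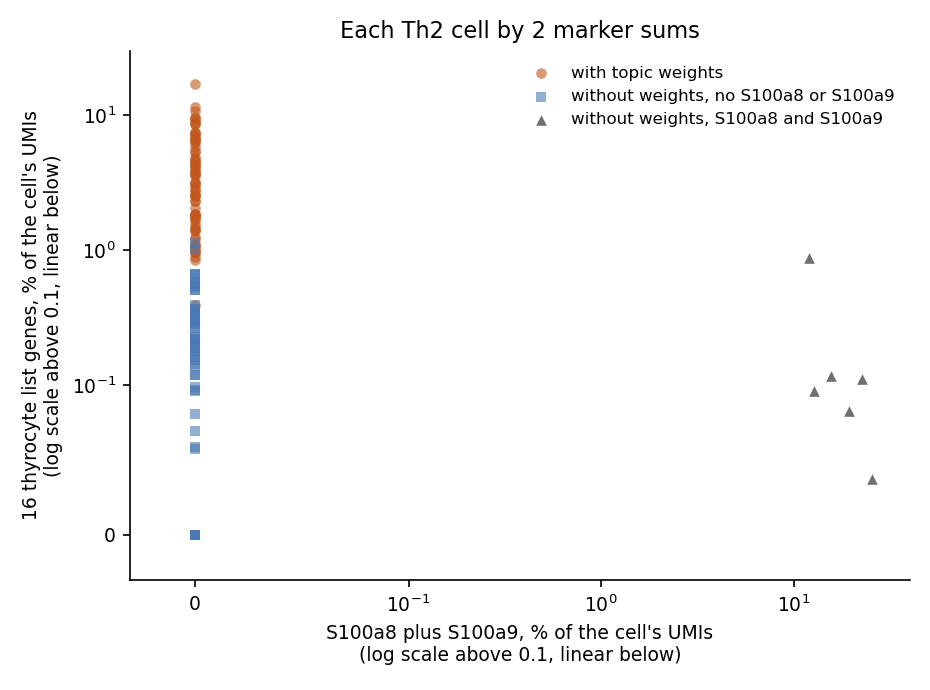
Each point is 1 Th2 cell, with S100a8 plus S100a9 as a percent of its UMIs on the x axis and the 16 thyrocyte genes as a percent of its UMIs on the y axis (both log above 0.1 and linear below). The 6 cells at 12.0% to 25.4% on the x axis lie at or below 0.875% on the y axis, and all other cells lie at 0 on the x axis.

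In the 72 cells with weights, Tg was read in every cell and other genes of thyroid function in part of the cells. Tg (ENSMUSG00000053469, GRCm38 chromosome 15, 66670753 to 66850721, plus strand) made up 4.43% of their summed UMIs, with a median of 2.55% per cell and a range of 0.392% to 16.6%. In Th1 it was 9.20% and in Th3 7.98%. By sample, Tg in the weighted Th2 cells was 2.20% and 3.51% in RW 1 and RW 3, 2.60%, 5.04% and 5.80% in the aJ1aJ2 samples, and 3.42%, 4.42% and 6.26% in the aN1aN2 samples. It was below the Th1 value of the same sample in all 8 samples, at 4.16 ± 1.47% (SD, n = 8) against 9.58 ± 1.16%. In cells without weights it was 0.222 ± 0.0596% (SD, n = 9), and the highest sample reached 0.299%. Over all cells without weights Tg was 0.229%, beside 0.226% in the shallow label EC4, which held endothelial RNA, 0.125% in M, 0.0789% in T2 and 0.0671% in T1. Thinned to 500 UMIs per cell, Tg had a UMI in 63.1% of the cells without weights (exact 95% interval 50.2% to 74.7%), 46.7% of EC4, 38.1% of M, 30.1% of T2 and 23.5% of T1 cells.

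The transcription factors that set thyroid identity followed the weights. Nkx2-1 had 92 UMIs in 42 of the 72 weighted cells and 0 in the 65 others, Pax8 had 61 and 1, Foxe1 18 and 1, and Hhex 14 and 0. In CPM, counts scaled to a common library total, Nkx2-1 was at 913 in the weighted cells, 353 in Th1 and 191 in Th3, and Pax8 at 605, 333 and 168. Foxe1 was lower than in Th1, at 179 against 505 CPM. The 4 factors were thus not moved alike relative to Th1. The iodotyrosine deiodinase Iyd was at 387 CPM in the weighted cells and 1023 in Th1. Of the transporters, the iodide carrier of the basal membrane Slc5a5 was at 149 against 151 CPM, and the anion exchanger Slc26a7 was at 724 against 574. Slc5a5 rested on 15 UMIs in 6 weighted cells. The TSH receptor gene Tshr had 8 UMIs, all in weighted cells. Of the 16 thyrocyte genes, 15 had a UMI in weighted cells and 10 in the others.

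Genes that most separated the weighted from the other Th2 cells were named by rank of the ratio, among genes with at least 20 UMIs and UMIs in at least 3 samples. The 10 highest were Nkx2-1, Kcnh3, Ccn4, Ccdc141, Sfta3-ps, Tfcp2l1, Col4a4, 3110039I08Rik, Sash1 and Lmo7, and all 10 had 0 UMIs in cells without weights. Against a floor of 3 counts, Nkx2-1 was at least 22.8-fold higher and Lmo7 at least 12.9-fold higher. The potassium channel gene Kcnh3 had 86 UMIs in 44 cells. Ccn4, a secreted matricellular protein, had 85 UMIs, of which 30.6% came from 1 cell. The 10 lowest were Tyrobp, Cd52, Ccl6, Fxyd5, Gm8995, Laptm5, Csf3r, Gm26740, Ptprc and Gimap3. Tyrobp, a signalling adaptor of myeloid and NK cells, had 158 UMIs in cells without weights and 0 with. These ranks describe the cells that were ranked and were not tested.

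Set beside Th1, the weighted cells were rich in RNAs that stay in the nucleus. Malat1, a long noncoding RNA of nuclear speckles, made up 11.3% of their UMIs, against 1.56% in Th1 and 0.564% in Th3. By sample it was 22.5% and 8.92% in RW 1 and RW 3, 18.1%, 9.33% and 9.11% in the aJ1aJ2 samples and 6.87%, 9.98% and 8.65% in the aN1aN2 samples. Each value was above that of Th1 of its own sample (11.7 ± 5.51% against 1.42 ± 0.583%, SD, n = 8). Neat1, the RNA scaffold of paraspeckles, was 0.623 ± 0.126% against 0.0660 ± 0.0204% in Th1, also higher in 8 of 8 samples. In cells without weights Malat1 was 7.66 ± 3.84% and Neat1 0.108 ± 0.0798% (SD, n = 9), each above Th1 of the same sample in 8 of 9 samples. Neat1 of the weighted cells lay above that of the unweighted cells in all 8 samples, and Malat1 in 6 of 8.

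**Figure D3:**
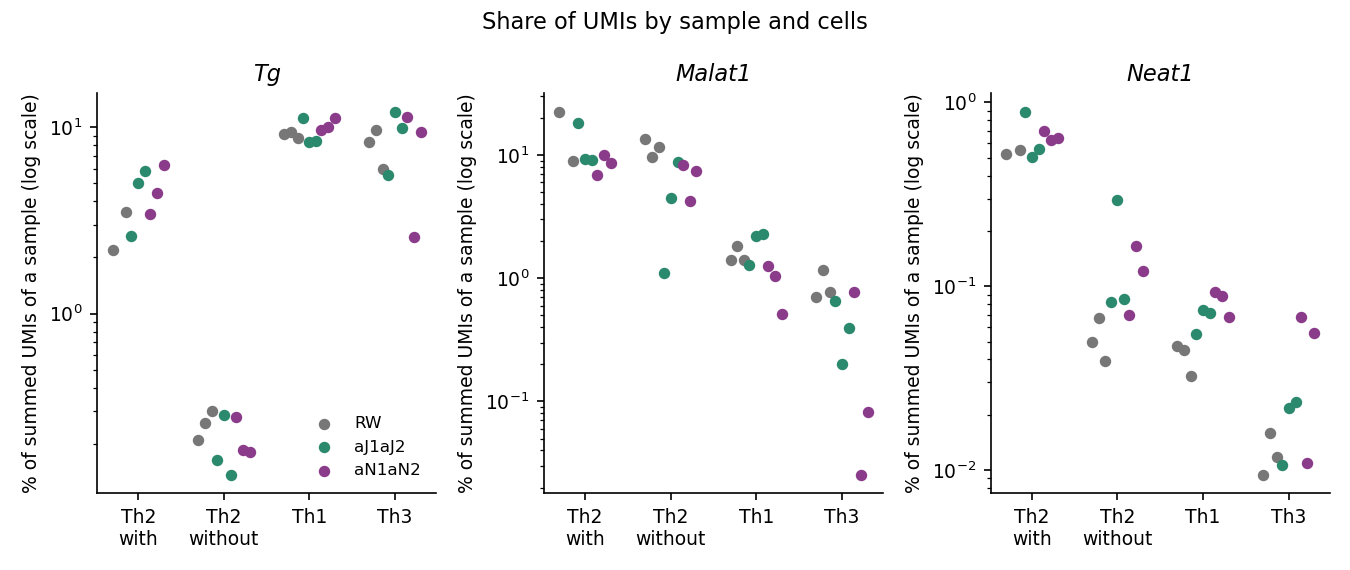
Share of summed UMIs (percent, log scale) that came from Tg, Malat1 and Neat1, with each point 1 sample, coloured by group, for Th2 cells with and without topic weights and for Th1 and Th3. Tg of weighted Th2 cells lies between 2.20% and 6.26%, below all Th1 samples, while their Neat1 lies above every other point, from 0.502% to 0.891%.

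Genes with the lowest ratio of weighted Th2 cells to Th1 were short. The 620 genes compared had at least 20 UMIs in the weighted cells, so a gene with a low ratio could enter only where its level in Th1 was high. Among them, the 155 with the lowest ratio to Th1 had a median genomic span of 4.62 kb and included 66 genes of ribosomal proteins. The next 155 had 15.2 kb and 13 such genes. The 155 above them had 51.6 kb and the highest 155 had 36.2 kb, each with 0. Spearman's rho of span with the ratio was 0.52 across these genes, and with exonic length it was 0.62. The genes were chosen on counts that enter the ratio, share libraries and depth, and are not independent. Within single samples it was 0.435 to 0.595. For the ratio of Th3 to Th1 over the same genes it was -0.64. Examples at the low end were the respiratory chain genes Cox8a (327 CPM against 1835 in Th1), Cox4i1 (258 against 1361) and Ndufa4 (228 against 1090), and the ribosomal protein gene Rplp0 (456 against 2087). Examples at the high end were Mdm4, a regulator of p53, at 417 against 48.9 CPM, and the transcription factor gene Ikzf2 at 238 against 25.7. The splicing-related genes Son (1845 against 436) and Srrm2 (1696 against 356) were also higher. All are ratios of summed counts without a test.

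Over all samples pooled, mitochondrial RNA did not run in parallel. The weighted cells had a median of 8.30% mitochondrial UMIs (1.70% to 24.8%), close to the 8.99% of Th1, and the 59 cells with neither weights nor S100a8 had 17.0% (5.43% to 24.8%). The authors' table holds no cell above 25%. These medians were not compared within samples. The sets of cells differ in their share from each group, and mitochondrial ribosomal RNA differed between groups, as given below.

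One topic led in the weighted cells. Topic 4 had the largest weight in 57 of 72 cells (79.2%), against 5.99% of Th1 and 6.66% of Th3 cells. The mean weight of topic 4 was 0.548. By sample it was 0.550 ± 0.115 (SD, n = 8), and in the same samples 0.125 ± 0.0395 in Th1 and 0.146 ± 0.0600 in Th3, so that it was higher in Th2 in 8 of 8. It was 0.748 and 0.548 in the RW samples with weighted cells, 0.536 to 0.633 in aJ1aJ2 and 0.416 to 0.458 in aN1aN2. The aN1aN2 samples were the lowest. Topics 1, 2 and 3 led in 53.4%, 27.3% and 10.1% of Th1 cells, and in 2.78%, 15.3% and 1.39% of the weighted Th2 cells. These shares pool groups that differ. Among Th1 cells, topic 2 led in 0% in each RW sample and in 82.9%, 78.1% and 77.4% in aN1aN2 1, 2 and 3. In aN1aN2 2, topics 2 and 4 led in 4 of 8 cells each. When each cell was matched to the label whose summed profile gave it the highest likelihood, with 43 mitochondrial and nuclear genes left out, all 72 were closest to Th1. With all genes it was 58 of 72, and 7 were closest to SM, 4 to Th3 and 3 to EC4.

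The 6 cells with S100a8 and S100a9 lay together on the map. They held all 1620 S100a8 UMIs (ENSMUSG00000056054, chromosome 3, 90668978 to 90670035, plus strand) and all 1549 S100a9 UMIs (ENSMUSG00000056071, chromosome 3, 90692632 to 90695721, minus strand) of the label. All other labels together, 10049 cells, held 17 S100a8 UMIs. In these 6 cells S100a8 and S100a9 together made up 12.0%, 12.8%, 15.6%, 19.3%, 22.6% and 25.4% of the UMIs, and S100a8 alone had 151, 153, 180, 499, 304 and 333 UMIs in that order. Of the 6, 5 were in aJ1aJ2 3 and 1 in aN1aN2 2, and the other 7 samples had none. They were deeper than the rest of the label (2076 to 4834 UMIs), had 1.72% to 5.64% mitochondrial UMIs and were closest to M, the label highest in macrophage genes. The whole neutrophil list made up 0.0409% of UMIs in M and 0.241% in Th3, against 20.9% in the 6 cells. None had a topic weight. Of 72 weighted cells 0 had an S100a8 UMI, which at their median depth of 1162.5 UMIs allows a share of cells with a UMI, not of cells expressing the gene, of up to 4.17% (3 of 72).

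Gelatinase granule genes were read in all 6 cells, and primary granule genes in none. The primary granule genes Mpo, Elane, Prtn3 and Ctsg had 0 UMIs, and so had Camp, Ngp and Chil3 of the specific granule list. Of the gelatinase granule list, Retnlg had 192 UMIs in all 6 cells, Mmp9 20 in all 6 and Mmp8 11 in all 6. Lcn2, of the specific granules, had 39 UMIs in 3 cells, 37 of them in the aN1aN2 2 cell. Csf3r, the receptor of the granulocyte growth factor G-CSF, had 58 of its 59 Th2 UMIs there. The chemokine receptor Cxcr2 had 12 UMIs, the cytokine Il1b 18, the protease inhibitor Slpi 45 and Ly6g 2. At 17165 UMIs in all, a gene at 0 is shown to be below 175 CPM only.

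The starts of S100a8 and S100a9 are shown because the pair was read in the same 6 cells and in no other Th2 cell. The 250 bases before the RefSeq start are given 5′ to 3′ from the RefSeq promoter table of GRCm38.p6, chr3:90668821-90669070 (plus strand) for S100a8 and chr3:90695722-90695971 (minus strand) for S100a9. GENCODE places the S100a8 start further upstream, inside the stretch shown. Capitals mark GAGGAA (core of the PU.1 site), TTGCNNAA (core of the C/EBP site) and TATAAA (bound by TBP), each searched on both strands and chosen with the results known.
S100a8: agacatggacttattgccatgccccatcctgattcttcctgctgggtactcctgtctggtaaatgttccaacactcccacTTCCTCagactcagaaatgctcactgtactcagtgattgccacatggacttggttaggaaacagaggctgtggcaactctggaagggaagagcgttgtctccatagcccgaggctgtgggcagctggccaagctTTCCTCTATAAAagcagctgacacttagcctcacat
S100a9: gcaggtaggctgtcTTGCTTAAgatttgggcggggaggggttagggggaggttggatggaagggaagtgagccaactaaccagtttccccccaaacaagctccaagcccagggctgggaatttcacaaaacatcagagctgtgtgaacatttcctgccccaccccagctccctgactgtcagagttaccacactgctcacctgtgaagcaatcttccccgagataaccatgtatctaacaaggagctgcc
S100a8 held GAGGAA as its reverse complement 170 and 36 bases before the start, next to TATAAA at 30 bases, the last 2 without overlap. S100a9 held TTGCNNAA at 236 bases. Of 32851 promoters of this length, 23.3% held GAGGAA, 9.56% TTGCNNAA and 12.4% TATAAA. The matches are a description of these letters only.

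The remaining 59 cells without weights held leukocyte RNA of several kinds, and also RNA of the C cell and parathyroid gene lists. Ptprc, the pan-leukocyte phosphatase CD45, had a UMI in 29 of 59 (49.2%, exact 95% interval 35.9% to 62.5%, median depth 880 UMIs), against 1 of 72 weighted cells (1.39%, median 1162.5 UMIs) and 0.998% of EC1 cells (median 3994 UMIs). The T and NK cell list of 8 genes had 125 UMIs in 30 of the 59 cells, against 1 UMI in the 72 weighted cells. Cd3g, a chain of the T cell receptor complex, had 48 UMIs in 18 cells, Cd3e 24 in 12 and the thymocyte recombinase gene Rag1 13 in 6. Trac had 0. Bcl11b, a T lineage factor, had 27 UMIs in 20 cells. Cd79a of the B cell receptor had 18 UMIs in 4 cells, and the macrophage list of 8 genes had 31 UMIs in 8 cells. Outside leukocyte genes, the C cell list had 114 UMIs in 9 of the 59 cells, and the parathyroid list 104 in 14. These made up 0.198% and 0.180% of the UMIs of the 59 cells, beside 0.217% for the T and NK cell list. By the closest label, 32 of the 59 matched T1, 14 M, 11 T2, 1 P and 1 Th3. Thyrocyte genes made up 0.262% of their UMIs, beside 0.242% in the shallow label EC4, 0.108% in the deeper EC1 and 4.93% in the weighted cells.

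Single cells decided some genes. All 77 Gzmc UMIs and all 67 Ccl1 UMIs, a granzyme and a chemokine, came from 1 cell of aJ1aJ2 4. Among genes with at least 20 Th2 UMIs and Th2 UMIs in at least 3 samples, a minimum that leaves out S100a8, S100a9 and Retnlg (2 samples each), the 20 genes highest in Th2 relative to all other cells were read mostly in the 65 cells without weights, and 4 also had UMIs in weighted cells (Gm26917 44, Pde7a 8, Gm38365 7 and Itgal 1). They were led by Csf3r (336 CPM in Th2 against 0.715 in all other cells), Mmp9 (131 against 1.49), Clec7a (211 against 4.13), Pirb (120 against 3.19) and Cd33 (137 against 4.04). Of these 20, Csf3r, Mmp9, Clec7a, Ccl6 and Tyrobp were mostly in the 6 cells. Gimap3, A130071D04Rik, Cxcr6 and Gm4759 had 0 UMIs in the 6 and in the weighted cells and were in the other 59. None of the 20 was a thyrocyte list gene.

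Within samples, the thyrocyte list separated the cells with weights from those without. The thyrocyte list was 4.69% of UMIs in weighted and 0.232% in unweighted cells as a mean over the 8 samples that hold both, a difference of 4.46 ± 1.46 percentage points (SD, n = 8), positive in 8 of 8 samples. The smallest difference was 2.46 points (RW 1) and the largest 6.60 (aN1aN2 3). The difference was 3.90 points when cells were thinned to 500 UMIs and 3.39 among cells of at most 1500 UMIs. For the neutrophil list it was -2.93 ± 5.45 points, negative in 5 of 8, at 0 in 3, and large in 2 only (-13.0 in aJ1aJ2 3 and -10.3 in aN1aN2 2). These are descriptions, since labels and weights come from the same counts.

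Th2 cells were a larger share of all cells in the aN1aN2 samples. The share was 1.28%, 0.759% and 1.24% in RW 1, 2 and 3, 1.03%, 1.16% and 1.41% in aJ1aJ2 1, 3 and 4, and 1.53%, 1.92% and 2.33% in aN1aN2 1, 2 and 3. The 3 aN1aN2 samples lay above the 6 others. The difference from RW was 0.833 points, with 1.93 ± 0.400% (SD, n = 3) against 1.09 ± 0.290%, and an exact two-sided permutation p of 0.1, the smallest that 3 against 3 samples allow. After Benjamini-Hochberg adjustment over 15 comparisons the p was 0.375. Against aJ1aJ2 (1.20 ± 0.192%) the difference was 0.726 points, with the same exact permutation p values. For aJ1aJ2 against RW the difference was 0.107 points (exact permutation p = 0.7, adjusted 0.808), and within series B it was 0.265 points (exact permutation p = 0.667). The RW and aJ1aJ2 samples overlapped.

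Of the 0.833 points, 0.808 lay in cells with weights and 0.025 in cells without. As a share of all cells they were 0.457 ± 0.413% in RW, 0.632 ± 0.169% in aJ1aJ2 and 1.27 ± 0.434% in aN1aN2 (SD, n = 3), and the aN1aN2 samples (0.904% to 1.75%) again lay above all others. Cells without weights were 0.635 ± 0.142%, 0.568 ± 0.199% and 0.660 ± 0.325%, with overlapping samples. This division was chosen after the shares had been seen. Among cells labelled Th1, Th2 or Th3, Th2 made up 4.68 ± 0.841% in RW, 5.98 ± 1.93% in aJ1aJ2 and 9.34 ± 3.48% in aN1aN2. The aN1aN2 and RW samples did not overlap (exact permutation p = 0.1, adjusted 0.375), and aN1aN2 overlapped with aJ1aJ2 (exact permutation p = 0.3, adjusted 0.562). Weighted cells made up 36.2 ± 32.4% of Th2 in RW, 53.1 ± 14.3% in aJ1aJ2 and 65.7 ± 16.1% in aN1aN2, and no pair of groups was separate (exact permutation p of 0.2 to 0.6). The RW spread came from RW 2, where 0 of 10 cells had weights.

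**Figure D4:**
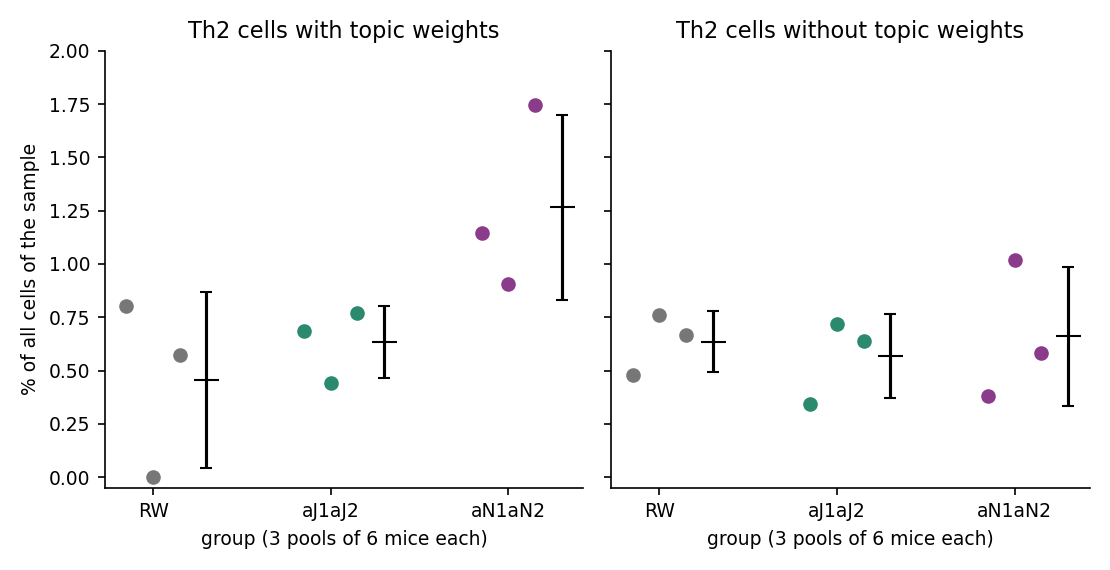
Th2 cells with (left) and without (right) topic weights as a percent of all cells of a sample, with each point 1 sample and bars the mean ± SD of 3 samples. On the left the aN1aN2 samples, from 0.904%, lie above the RW and aJ1aJ2 samples, and on the right the groups overlap.

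Over all Th2 cells, the thyrocyte list percents of the aN1aN2 and RW samples did not overlap, and the neutrophil list separated no pair of groups. The neutrophil list made up 7.26% of Th2 UMIs in aJ1aJ2 3 and 4.92% in aN1aN2 2, and at most 0.0112% in the RW samples. The exact permutation p of the 3 comparisons was 0.7 to 0.9. Without the 6 cells with S100a8 and S100a9 the difference of aJ1aJ2 from RW changed sign, to -0.00396 points. The thyrocyte list was 1.46 ± 1.05% in RW, 2.81 ± 0.797% in aJ1aJ2 and 3.84 ± 1.65% in aN1aN2. All aN1aN2 samples (2.60% to 5.71%) lay above all RW samples (0.269% to 2.25%), with an exact permutation p of 0.1 and 0.375 after adjustment. The number of weighted cells moved with this percent, and its part in the result was not tested. In weighted cells alone, the thyrocyte list was 2.71% and 4.40% in RW 1 and RW 3, and 3.82%, 4.73% and 6.78% in aN1aN2 1, 2 and 3. There the RW and aN1aN2 samples overlapped.

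Single genes were tested on the counts of each sample summed over its Th2 cells, which held 6707 to 34143 UMIs. At this depth 193 genes could be tested. With edgeR's quasi-likelihood test and an adjusted p under 0.05, 0 genes changed in aJ1aJ2 against RW (0% of 193), with 15 genes at an unadjusted p under 0.05, and DESeq2 called 0 as well. With no filter on low counts, edgeR called 14 genes in this comparison, 13 higher and 1 lower. In aN1aN2 against RW 6 genes changed (3.11% of 193), 1 higher and 5 lower (with no filter 7, 5 higher and 2 lower). In aN1aN2 against aJ1aJ2 5 genes changed (2.59% of 193), 1 higher and 4 lower. Both comparisons share the aN1aN2 samples. Of the 16 thyrocyte genes 5 could be tested, and 0 passed in any of the 3 comparisons. Their median log2 change in aN1aN2 against RW was 0.287. In the weighted cells alone, tested below, 5 could also be tested in that comparison. There 1 was lower, 0 were higher and the median log2 change was -0.775.

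Of the 5 lower genes, 2 encode mitochondrial ribosomal RNA and 2 overlap ribosomal RNA repeats. The mitochondrial ribosomal RNA gene mt-Rnr2 was at 29282, 54527 and 37930 CPM in RW 1, 2 and 3, at 31907, 37519 and 47515 in the aJ1aJ2 samples, and at 8429, 6587 and 8190 in the aN1aN2 samples. The aN1aN2 samples were the lowest and did not overlap with the others. Its log2 change from RW was -2.62 (SE 0.30, edgeR adjusted p = 0.000218). The second mitochondrial ribosomal RNA gene, mt-Rnr1, changed by -2.69 (SE 0.42, edgeR adjusted p = 0.00139). Gm42418, an annotated gene that overlaps ribosomal RNA repeats, ranged from 35037 to 68739 CPM over the RW samples and from 11418 to 16980 over the aN1aN2 samples, a log2 change of -1.96 (SE 0.29, edgeR adjusted p = 0.00132). AY036118, another such gene, changed by -4.61 (SE 0.73, edgeR adjusted p = 0.00139). These 4 were also lower in aN1aN2 than in aJ1aJ2, by log2 changes of -2.43, -2.34, -1.91 and -4.37 in the order mt-Rnr2, mt-Rnr1, Gm42418 and AY036118. With no filter on low counts, AY036118 kept its call in both comparisons, and mt-Rnr1, mt-Rnr2 and Gm42418 lost theirs (edgeR adjusted p = 0.773 against RW). The calls of mt-Rnr1 against RW were lost without aN1aN2 1 or aN1aN2 3 (edgeR adjusted p = 0.122 and 0.0549), and all 5 calls against aJ1aJ2 were lost without aN1aN2 1 (edgeR adjusted p of 0.0631 and above). Against aJ1aJ2, mt-Rnr1 was also lost without aJ1aJ2 4 or aN1aN2 3 (edgeR adjusted p = 0.167 and 0.169).

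Txnip rose. This gene encodes thioredoxin-interacting protein, a regulator of redox state and glucose uptake. It was at 254, 224 and 137 CPM in RW 1, 2 and 3, at 1491, 322 and 429 in the aJ1aJ2 samples and at 3457, 3557 and 3629 in the aN1aN2 samples. The log2 change in aN1aN2 was 3.83 from RW (SE 0.64, edgeR adjusted p = 0.00181) and 2.38 from aJ1aJ2 (SE 0.57, edgeR adjusted p = 0.0440). In aJ1aJ2 1, the highest of the other samples, the value rested on 10 UMIs. The call against aJ1aJ2 was lost without any one of aJ1aJ2 3, aJ1aJ2 4 and the 3 aN1aN2 samples (edgeR adjusted p of 0.0849 to 0.322). Split by weights, Txnip had a mean of 4861 CPM in weighted cells of aN1aN2, 723 in those of aJ1aJ2 and 265 in those of RW. In cells without weights the means were 707, 793 and 118 CPM, from 9, 15 and 3 UMIs. The share of weighted cells differed between the samples as given above, and its part in the result was not tested. Calr, which encodes the endoplasmic reticulum chaperone calreticulin, was at 550, 561 and 959 CPM in RW and at 0, 0 and 196 in aN1aN2, a log2 change of -3.45 (SE 0.82, edgeR adjusted p = 0.0351). The aN1aN2 value rested on 4 UMIs of aN1aN2 3, and without that sample the fitted log2 change was -6.89, against libraries at 0. The call was lost without any one of RW 1, RW 2, RW 3, aN1aN2 1 and aN1aN2 2 (edgeR adjusted p of 0.0648 to 0.198).

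The 6 changes were not particular to Th2. The same fit on Th1 sums and on the sums of all cells other than Th2 called all 6 genes in the same direction. For mt-Rnr2 the log2 change from RW was -1.24 in Th1 and -1.19 in the other cells, and for Txnip 3.18 and 2.55. For Gm42418 it was -0.97 in Th1 and -1.26 in the other cells. The difference between these and the Th2 values was not tested. The plot by sample shows 4 of the genes in the 3 sets of cells.

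**Figure D5:**
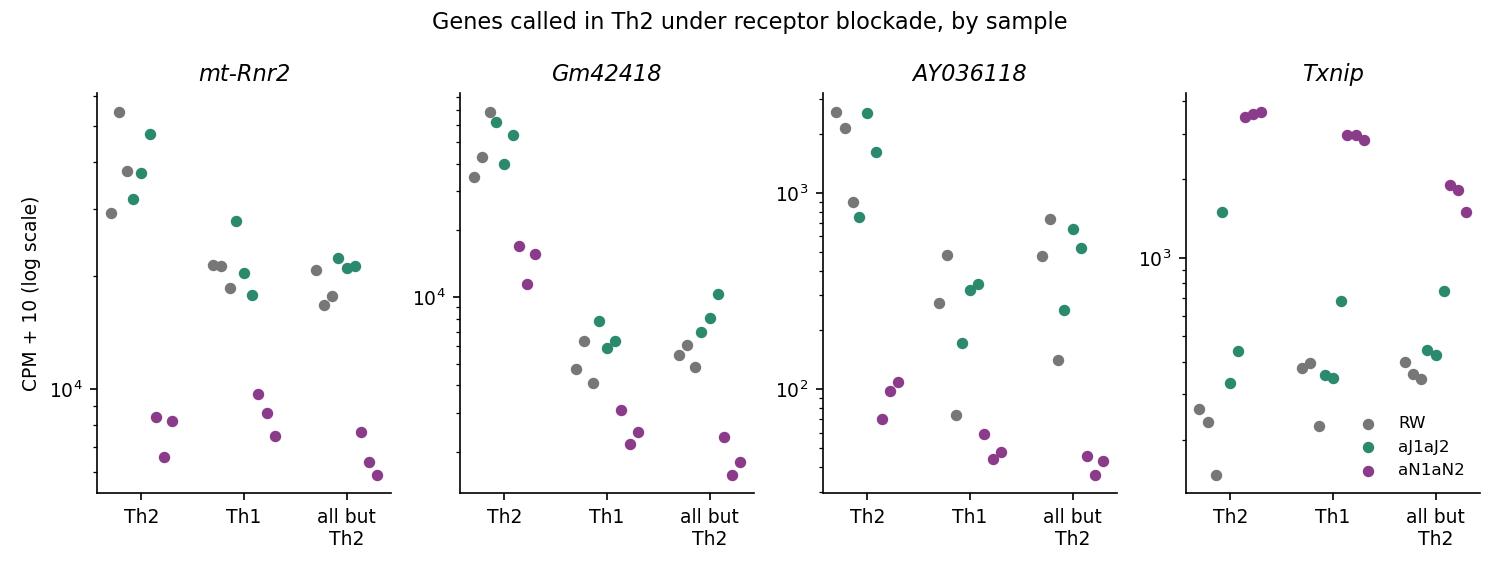
CPM plus 10 (log scale) of 4 genes called in Th2, with each point 1 sample, for Th2, for Th1 and for all cells other than Th2. In each set the 3 aN1aN2 samples lie apart from the 6 others, lower for mt-Rnr2, Gm42418 and AY036118 and higher for Txnip.

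Without the 6 cells with S100a8 and S100a9, 164 genes could be tested. Then 0 genes (0% of 164) changed in aJ1aJ2 against RW (edgeR, 9 at an unadjusted p under 0.05), 22 (13.4%) in aN1aN2 against RW and 12 (7.32%) in aN1aN2 against aJ1aJ2. The 6 and the 5 genes called in the whole label were among them. In the weighted cells alone, without RW 2 and aJ1aJ2 1, which held under 5 such cells, 17 of 162 genes (10.5%) changed in aN1aN2 against RW, 4 higher and 13 lower. In aN1aN2 against aJ1aJ2 12 (7.41%) changed, and in aJ1aJ2 against RW 0 (0% of 162, 7 at an unadjusted p under 0.05). All 6 genes called in the whole label were among the 17. Of the list of 14 chaperones of the endoplasmic reticulum, 4 could be tested and 3 fell, namely Hspa5 (BiP) by -2.81 (SE 0.55), Calr by -3.80 (SE 0.75) and Hsp90b1 by -2.02 (SE 0.56), on the log2 scale, with edgeR adjusted p values of 0.00113, 0.00115 and 0.0198. The median log2 change of the 4 was -2.42, beside 0.02 over all 162 genes. The filter on low counts lets a gene enter through the samples where it is high. Calr had 11 and 12 UMIs in RW 1 and RW 3, and 0, 0 and 4 in aN1aN2. The number that fell and the median are therefore tilted by which genes could be tested. Hspa5 was at 1220 and 2022 CPM in RW 1 and RW 3, 1320 and 863 in aJ1aJ2 3 and 4, and 147, 83.6 and 527 in the aN1aN2 samples. Slc26a7, the only tested gene of 6 in the iodide transport list, changed by -1.82 (edgeR adjusted p = 0.0167), and Ccn4 by -3.46 (edgeR adjusted p = 0.00170). The higher genes were Txnip, Timp3, Srsf5 and Rpl21. Of the 7 erythroid genes 1 could be tested, the globin gene Hbb-bs, which marks red cells. It was higher in aN1aN2 than in aJ1aJ2, by a log2 change of 2.21 (SE 0.46, edgeR adjusted p = 0.00147), and against RW the log2 change was 1.28 (edgeR adjusted p = 0.0754). Its mean was 2857 CPM in the weighted cells of aN1aN2, 517 in those of aJ1aJ2 and 1011 in those of RW, and in all cells other than Th2 it was 163283, 73177 and 82407 CPM. The part of red cell RNA in the other changes was not tested. All 17 were called in Th1 in the same direction. Of the list of 16 Notch receptors, ligands and targets, none had enough counts to be tested, and the weighted cells held 57 UMIs of them.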

How the data were processed

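The authors deposited 1 table of raw UMI counts per gene and cell and 1 cell annotation with labels, UMAP positions and topic weights. Per the submitters' processing notes, Cell Ranger and GRCm38 were used, and the making of labels and topics is not given in the sources used here. In 2619 annotation lines an unquoted comma was repaired. Gene symbols matched 52403 of 52636 identifiers, and gene positions are from GENCODE vM21. The members and gene lists were chosen with earlier results of these data known. Cells are not replicates, so shares and list percents per sample were set against each other between groups by exact permutation (two-sided), and p-values measure the spread between pools. Counts summed per sample were fitted for 3 groups in 1 model with edgeR 4.0.16 (filterByExpr, TMM, quasi-likelihood test, Benjamini-Hochberg), and with DESeq2 1.42.0 as an alternative. On simulated counts for aN1aN2 against RW over 193 genes, 90.6% of 96 genes changed 4-fold were recovered, with 3 wrong calls. The simulation set 1 fixed spread for all genes, not the spread between these pools. Its recovered share is therefore a check of the fit, and does not give the share of such changes detectable in these data. CPM values are not TMM-scaled. Intervals (exact, 95%) and floors of 3 counts cover counting error only. Doublets were not called here. Named genes were list genes with at least 20 UMIs, the 20 highest Th2 ratios, the 10 highest and lowest ratios of weighted to unweighted cells, and called genes. Genes of lower counts, and those cited against Th1, were named after their values were seen. Alternatives were other filters, scalings, thinning to 500 UMIs, other backgrounds and leaving out samples. Some genes are not reported here.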

Additional observations from a re-analysis of the deposited data

How the results depend on the processing

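The shares rest on 3 pools a group and 6 to 22 Th2 cells a pool, and 193 genes had counts enough for a test, so that smaller changes and rarer genes were not detectable at this depth. Cells share free RNA, whose part in low counts was not tested. Alternative values were graded by kind of result. A group difference counted as kept by its sign alone, with no threshold on p. A count was kept within a set fold of the main count, and a weighted-to-unweighted difference within 1 SD. A single gene was kept by its sign and an adjusted p under 0.05. Of 346 alternative values, 288 were kept, 33 gene changes kept their sign but not the threshold, 15 moved beyond these limits and 10 changed sign. The cause was not tested for any of them beyond what the setting itself removes. With the strictest percentile tried, 39 cells were above background for the thyrocyte list, and 6 cells (95th percentile) or 3 cells (background from Eryth1 and Eryth2) were above it for both lists. Without aJ1aJ2 3, 4 cells were above it for the neutrophil list. Leaving out 1 sample at a time, the difference of aJ1aJ2 from RW ranged from -0.0594 (without RW 2) to 0.202 points in the Th2 share of all cells, from -1.22 (without RW 2) to 30.0 points in the share with weights, and from -0.00336 (without aJ1aJ2 3) to 3.63 points in the neutrophil list. In the neutrophil list the difference of aN1aN2 ranged from -0.00212 (without aN1aN2 2) to 2.46 points against RW and from -2.42 to 1.64 points against aJ1aJ2. The following were chosen after seeing the data. With only the cells without weights, the aJ1aJ2 difference in share of all cells was -0.0677 points. Without the 6 cells with S100a8 and S100a9, the neutrophil list difference was -0.00396 points for aJ1aJ2 against RW and 0.0138 points for aN1aN2 against aJ1aJ2.

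For genes changed in aN1aN2 against RW, the 6 calls of edgeR became 10 with DESeq2, 9 with DESeq2's size factors, 17 in weighted cells, 22 without the 6 cells, and 4 to 11 with 1 sample left out (4 without aN1aN2 1, 11 without aN1aN2 2). Against aJ1aJ2, the 5 calls became 10 with DESeq2, 12 in weighted cells, 12 without the 6 cells, and 0 to 6 with 1 sample left out (0 without aN1aN2 1, 3 without aJ1aJ2 4). With no filter on low counts, 14 genes were called in aJ1aJ2 against RW, 13 higher and 1 lower, and in aN1aN2 against RW 7 were called, 5 higher and 2 lower, of which AY036118 and Txnip were among the 6. The other 4 of the 6 had an edgeR adjusted p of 0.773. Against aJ1aJ2 4 genes were then called, all lower, of which AY036118 was among the 5, and the other 4 of the 5 had edgeR adjusted p values of 0.294 to 0.791. DESeq2's size factors moved the median log2 change of aN1aN2 against aJ1aJ2 from 0.01 to -0.12, and the called genes kept their directions. Txnip then missed the threshold (edgeR adjusted p = 0.0606).

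The RW and aN1aN2 samples share 2 numbers in their titles, and samples with the same number had correlated deviations of 0.083 and 0.299, which does not show that they are pairs. With the replicate block, 2 genes were called in aN1aN2 against RW, 1 of them, AY036118, among the 6 (edgeR adjusted p = 0.00269). The block gave differences of 0.704 points in the Th2 share of all cells, 2.52 in the share of Th1, Th2 and Th3 cells, 29.8 in the share with weights, 2.45 in the neutrophil list and 1.83 in the thyrocyte list, each higher in aN1aN2 in both pairs, with an exact permutation p of 0.5, the smallest that 2 pairs allow.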
